A study of Mus musculus with 17 samples.

Results

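The genes described here are 8 members of the ADAMTS family of secreted metalloproteases, *Adamts1*, *Adamts2*, *Adamts4*, *Adamts5*, *Adamts9*, *Adamts10*, *Adamts12* and *Adamts15*. They were chosen by symbol, as 8 of the 31053 genes in the count table, and each of the 8 was among the 14030 genes with enough counts to be tested. Bulk RNA-seq of cardiac fibroblasts (CFs) was analysed for 17 libraries taken from 1 to 6 days post-infarction (dpi), with 3 libraries for each of days 1, 2, 4 and 6, 4 libraries for day 3 and 1 for day 5. The study asked when reparative cardiac fibroblasts (RCFs) appear after myocardial infarction, with 3 to 5 dpi as the window of transition. The mice were C57BL/6 animals of 8 to 10 weeks of the genotype Collagen1a1-GFP+, and in every group the left anterior descending coronary artery had been ligated. GFP+/CD31-/CD45- cells were sorted from the infarcted hearts, which leaves out endothelial cells bearing CD31 and leukocytes bearing CD45. The sort keeps whichever cells have an active collagen I promoter, and a level of *Col1a1* is therefore not independent of it. Uninfarcted hearts were not analysed here, and every comparison is between days after ligation.

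ADAMTS proteases carry thrombospondin repeats beside the protease domain and act in the extracellular matrix after their propeptide has been removed, mostly by furin-like convertases. *Adamts1*, *Adamts4*, *Adamts5*, *Adamts9* and *Adamts15* encode enzymes that cut versican and other hyaluronan-binding proteoglycans, and *Adamts2* encodes an enzyme that removes the amino-terminal propeptide of fibrillar procollagens. The *Adamts10* product associates with fibrillin microfibrils, and the *Adamts12* product cuts cartilage oligomeric matrix protein (COMP). In the injured heart, fibroblasts deposit the collagens, versican and microfibrils on which these enzymes act.

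Total counts ranged from 8021815 to 22029938 per library. All 6 fibroblast markers (*Col1a1*, *Col1a2*, *Pdgfra*, *Dcn*, *Lum* and *Tcf21*) were detected in every library. Y-linked counts exceeded *Xist*, the RNA of the inactive X chromosome, in replicates 2 and 3 of 1 dpi and in every library of 2, 3 and 5 dpi, whereas *Xist* was higher in replicate 1 of 1 dpi and in every library of 4 and 6 dpi. Day and this sex-linked pattern cannot be told apart in comparisons of 2, 3 or 5 dpi with 4 or 6 dpi. At 6 against 1 dpi they are confounded in part, since only replicate 1 of 1 dpi had more *Xist*, with 84 Y-linked counts. The 6 dpi libraries had the pattern of those of 4 dpi. Library names given by the submitters for 3 dpi follow another scheme than those of the other days, which cannot be told apart from the day itself. Levels are given as CPM, the counts of a gene scaled by the normalized total of its library. The summed level of 6 cardiomyocyte markers was 17.1 to 34.8 CPM at 1 dpi, 7.89 to 11.3 CPM at 3 dpi, 39.9 to 67.5 CPM at 4 dpi and 74.5 to 175 CPM at 6 dpi. The 6 mural cell markers summed to 41.0 to 76.8 CPM at 1 dpi and to 142 to 173 CPM at 6 dpi. Of these, *Rgs5*, *Cspg4* and *Notch3* were called higher at 6 against 1 dpi (edgeR, adjusted p under 0.05), as were 6.91% of all genes tested. *Kcnj8*, *Abcc9* and *Myh11* were not called, with log2 fold changes of −0.29, 0.41 and 0.43. The 7 leukocyte markers summed to 37.5 to 163 CPM at 3 dpi and to at most 31.4 CPM at 1, 2, 4 and 6 dpi. *Ptprc*, which encodes CD45, was at 0 counts in 12 libraries, and *Adgre1*, *Itgam* and *S100a8* were also at 0 in some. *Cd68*, *Lyz2* and *Csf1r* had counts in every library, with *Lyz2* at up to 124 CPM. The 6 endothelial markers summed to 16.1 to 55.7 CPM. *Cdh5* was at 0 counts in 10 libraries, and *Kdr*, *Tie1* and *Emcn* were also at 0 in some. *Pecam1*, which encodes CD31, and *Tek* had counts in every library, with *Tek* at 12.4 to 42.1 CPM.

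Of the 8 ADAMTS genes, 4 changed across the 6 days (*Adamts2*, *Adamts5*, *Adamts10* and *Adamts12*; edgeR quasi-likelihood F-test, adjusted p under 0.05), while 15% of all genes tested did so. Their highest mean levels fell on different days, at 5 dpi for *Adamts2* (6 dpi without the single 5 dpi library), 2 dpi for *Adamts5*, 6 dpi for *Adamts10* and 4 dpi for *Adamts12*. Between 1 and 6 dpi, *Adamts2* and *Adamts10* rose and *Adamts1* fell. By edgeR, *Adamts2* was called for 3 to 5 dpi against 1 to 2 dpi, where DESeq2 called *Adamts5* as well. Between consecutive days with replicates edgeR called *Adamts12* at 4 against 3 dpi, and DESeq2 called *Adamts12* there and *Adamts10* at 6 against 4 dpi. In these sorted populations, fewer cells of a type and less RNA per cell cannot be told apart.

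**Figure D1:**
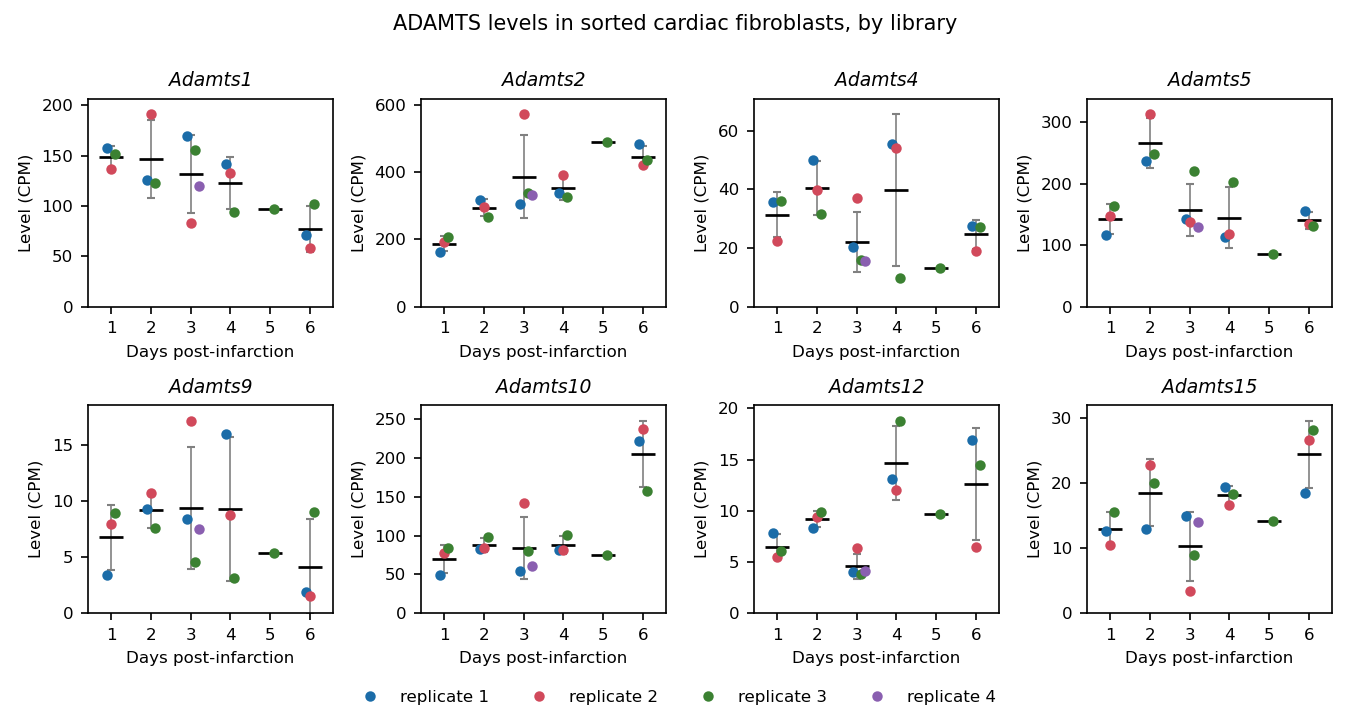
Level of each of the 8 ADAMTS genes in CPM (vertical axis, separate scale for each gene) against days post-infarction (horizontal axis). Points are the 17 libraries, coloured by replicate number, black lines are the mean of a day and grey bars the SD between its libraries (none for the single library of 5 dpi). *Adamts2* lay between 163 and 209 CPM at 1 dpi and between 421 and 483 CPM at 6 dpi, *Adamts5* had its highest mean at 2 dpi, *Adamts10* was above 157 CPM only at 6 dpi, and *Adamts12* was between 3.79 and 6.36 CPM at 3 dpi and between 12.1 and 18.8 CPM at 4 dpi.

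Sequences just before the transcription start are shown for the 3 ADAMTS genes that changed and had a promoter entry in RefSeq (GRCm38.p6), since their levels moved in different directions. Each line gives the 250 bases before the start, read 5′ to 3′ on the strand of the gene, and capitals mark a TATA box (TATAAA) or a GC box (GGGCGG), on either strand.
Adamts1, chr16:85803114-85803363, minus strand: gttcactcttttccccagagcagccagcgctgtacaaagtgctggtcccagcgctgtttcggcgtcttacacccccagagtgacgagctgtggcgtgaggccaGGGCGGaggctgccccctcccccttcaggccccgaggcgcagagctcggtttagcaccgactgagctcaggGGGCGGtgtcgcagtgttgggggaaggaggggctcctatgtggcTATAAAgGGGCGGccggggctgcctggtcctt
Adamts2, chr11:50601835-50602084, plus strand: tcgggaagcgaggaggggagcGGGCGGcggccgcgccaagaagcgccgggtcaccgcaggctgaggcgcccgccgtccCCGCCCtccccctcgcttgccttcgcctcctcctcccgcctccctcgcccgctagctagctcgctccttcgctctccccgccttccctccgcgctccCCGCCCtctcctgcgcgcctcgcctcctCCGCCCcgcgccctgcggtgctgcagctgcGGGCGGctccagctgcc
Adamts12, chr15:11064523-11064772, plus strand: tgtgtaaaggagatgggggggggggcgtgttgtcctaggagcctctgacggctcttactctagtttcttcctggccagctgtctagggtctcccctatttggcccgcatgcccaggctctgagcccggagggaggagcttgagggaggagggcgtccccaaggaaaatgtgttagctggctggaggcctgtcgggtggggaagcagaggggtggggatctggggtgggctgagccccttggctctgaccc
The *Adamts1* sequence held 1 TATA box, which starts 32 bases before the transcription start, and 3 GC boxes. The *Adamts2* sequence held 5 GC boxes and no TATA box, with a GC content of 78.0% against 65.6% for *Adamts1* and 63.2% for *Adamts12*. The *Adamts12* sequence held neither motif. The promoter of *Adamts9*, the fourth gene with an entry, held 1 GC box. Among 32851 RefSeq promoter sequences of the same length, 12.4% held TATAAA and 32.7% held GGGCGG. No match to the AP-1 motif TGANTCA, the CRE motif TGACGTCA, the TEAD motif GGAATG or the RUNX motif TGTGGT was found on either strand of the 4 ADAMTS sequences, and these motifs were found in 6.75%, 1.55%, 12.6% and 14.0% of all promoters.

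*Adamts2* (ENSMUSG00000036545; GRCm38, chromosome 11, 50602084 to 50807573, plus strand), the procollagen N-proteinase, was at 163, 192 and 209 CPM in the 3 libraries of 1 dpi. It was at 318, 297 and 268 CPM at 2 dpi and at 306, 572, 337 and 332 CPM at 3 dpi. Every library of 2 and 3 dpi was above every library of 1 dpi, and replicate 2 of 3 dpi stood apart from the other 3. At 4 dpi it was at 338, 390 and 327 CPM, in the 5 dpi library at 488 CPM, and at 6 dpi at 483, 421 and 436 CPM. The 6 dpi libraries were all above those of 1, 2 and 4 dpi. The mean rose from 188 ± 23.4 CPM (SD, n = 3) at 1 dpi to 447 ± 32.4 CPM (SD, n = 3) at 6 dpi, a log2 fold change of 1.25 (SE 0.26; edgeR adjusted p = 0.00375). For the whole course the adjusted p was 0.0166, and it was 0.0708 without replicate 1 and 0.0575 without replicate 2 of 1 dpi. For 3 to 5 dpi against 1 to 2 dpi, with each day weighted equally, the log2 fold change was 0.78 (SE 0.18; edgeR adjusted p = 0.00868). When only libraries whose Y-linked counts exceeded *Xist* were kept, that difference was 0.84 on the log2 scale with an adjusted p of 0.0561. Replicate 1 of 1 dpi, where *Adamts2* was at 163 CPM, had 84 Y-linked and 1670 *Xist* counts. The 6 dpi libraries had at most 10 Y-linked counts. No step between consecutive days with replicates passed the test for *Adamts2*, with 0.65 at 2 against 1 dpi (adjusted p = 0.539) and 0.34 at 6 against 4 dpi (adjusted p = 0.458). Steps to and from the 5 dpi library were not tested.

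*Adamts10* (ENSMUSG00000024299; chromosome 17, 33524204 to 33553782, plus strand), whose product binds fibrillin-1 and takes part in microfibril assembly, stayed low until the last day sampled. It was at 49.8, 77.4 and 83.9 CPM at 1 dpi and at 82.1, 84.1 and 98.4 CPM at 2 dpi. At 3 dpi it was at 54.4, 142, 80.1 and 61.0 CPM, with replicate 2 the highest. At 4 dpi it was at 81.4, 80.9 and 101 CPM, and in the 5 dpi library at 74.7 CPM. At 6 dpi it was at 222, 238 and 157 CPM, and these 3 libraries were above each of the other 14. The mean was 70.4 ± 18.1 CPM (SD, n = 3) at 1 dpi and 206 ± 42.8 CPM (SD, n = 3) at 6 dpi. The log2 fold change of 6 against 1 dpi was 1.55 (SE 0.32; edgeR adjusted p = 0.00391). Against 4 dpi the difference was 1.23 (SE 0.32; edgeR adjusted p = 0.0646), and without replicate 3 of 6 dpi, the lowest of that day, its adjusted p was 0.0162. This difference was not called in 11 of 15 alternatives. Over the whole course the adjusted p was 0.00789, and it was 0.0551 without replicate 1 and 0.0647 without replicate 2 of 6 dpi. Cardiomyocyte and mural marker sums were also highest or among the highest at 6 dpi (74.5 to 175 CPM and 142 to 173 CPM). Their part in the rise of *Adamts2* and *Adamts10* from 1 to 6 dpi was not tested, nor was that of the sex-linked pattern.

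*Adamts12* (ENSMUSG00000047497; chromosome 15, 11064790 to 11349231, plus strand), which encodes a protease of COMP, had between 39 and 262 counts per library. It was at 7.85, 5.48 and 6.11 CPM at 1 dpi, at 8.35, 9.41 and 9.87 CPM at 2 dpi and at 3.99, 6.36, 3.79 and 4.15 CPM at 3 dpi. It was at 13.1, 12.1 and 18.8 CPM at 4 dpi, at 9.69 CPM in the 5 dpi library and at 16.9, 6.48 and 14.5 CPM at 6 dpi. The 4 dpi libraries were all above those of 3 dpi, and the 6 dpi libraries were split, with replicate 2 near the level of 1 dpi. The mean was 4.57 ± 1.2 CPM (SD, n = 4) at 3 dpi and 14.7 ± 3.63 CPM (SD, n = 3) at 4 dpi, a log2 fold change of 1.67 (SE 0.33; edgeR adjusted p = 0.00951). This difference was called under each of 16 alternatives, with log2 fold changes between 1.45 and 1.88. No alternative separates day from the sex-linked pattern in this difference, and the part of that pattern was not tested. The 5 dpi library was above each library of 3 dpi and below each of 4 dpi. Cardiomyocyte markers summed to 7.89 to 11.3 CPM at 3 dpi and to 39.9 to 67.5 CPM at 4 dpi, and their part in the rise of *Adamts12* was not tested. Across the 6 days the adjusted p was 0.0114. At 3 against 2 dpi the difference was −1.01 (adjusted p = 0.096), and without replicate 2 of 3 dpi it was −1.21 with an adjusted p of 0.0434. At 6 against 1 dpi it was 0.97 (SE 0.35; adjusted p = 0.0752), and without replicate 2 of 6 dpi the adjusted p was 0.0277. No call was made in 14 of 16 alternatives at 3 against 2 dpi and in 12 of 15 at 6 against 1 dpi.

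*Adamts5* (ENSMUSG00000022894; chromosome 16, 85856173 to 85901828, minus strand), the main aggrecan-degrading enzyme of mouse cartilage and also a versican protease, was highest at 2 dpi. It was at 117, 148 and 163 CPM at 1 dpi and at 237, 313 and 249 CPM at 2 dpi. At 3 dpi it was at 142, 138, 220 and 130 CPM, and at 4 dpi at 113, 119 and 202 CPM. The 5 dpi library was at 86.3 CPM and the 6 dpi libraries at 156, 134 and 131 CPM. Every library of 2 dpi was above every library of the other days. The mean was 143 ± 23.9 CPM (SD, n = 3) at 1 dpi, 266 ± 40.9 CPM (SD, n = 3) at 2 dpi and 140 ± 13.6 CPM (SD, n = 3) at 6 dpi. Across the 6 days the edgeR adjusted p was 0.0311. This call was lost without any single library of 2 dpi (adjusted p = 0.058 without replicate 1, 0.145 without replicate 2 and 0.0709 without replicate 3) and without replicate 1 (0.0521) or replicate 2 (0.0559) of 6 dpi. Neither step around 2 dpi passed the test, with a log2 fold change of 0.90 at 2 against 1 dpi (adjusted p = 0.347) and of −0.76 at 3 against 2 dpi (adjusted p = 0.101). Without replicate 3 of 3 dpi the second step was −0.98 with an adjusted p of 0.045. This second step was not called in 15 of 16 alternatives. For 3 to 5 dpi against 1 to 2 dpi *Adamts5* gave −0.64 (SE 0.20; edgeR adjusted p = 0.054). It was called lower there by DESeq2 (adjusted p = 0.0185) and in edgeR without replicate 1 of 1 dpi (0.0468), replicate 2 (0.037) or replicate 3 (0.0234) of 3 dpi or replicate 3 of 4 dpi (0.0114). In 16 of 25 alternatives this window difference was still not called, and its log2 fold change ran from −0.83 to −0.37. *Adamts5* at 6 dpi was within the range of 1 dpi, with a log2 fold change of −0.02 (SE 0.27).

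*Adamts1* (ENSMUSG00000022893; chromosome 16, 85793827 to 85803113, minus strand) encodes a versican-cutting enzyme and lies next to *Adamts5* on the same strand. It was at 158, 136 and 152 CPM at 1 dpi and at 125, 191 and 123 CPM at 2 dpi. At 3 dpi it was at 170, 83.6, 155 and 120 CPM, and at 4 dpi at 142, 133 and 93.8 CPM. The 5 dpi library was at 96.6 CPM and the 6 dpi libraries at 70.8, 58.6 and 102 CPM. The libraries of 1 and 6 dpi did not overlap. The mean went from 149 ± 11.2 CPM (SD, n = 3) at 1 dpi to 77.2 ± 22.4 CPM (SD, n = 3) at 6 dpi, a log2 fold change of −0.95 (SE 0.29; edgeR adjusted p = 0.0397). This call was lost without replicate 1 (adjusted p = 0.11), replicate 2 (0.0685) or replicate 3 (0.0847) of 1 dpi and without replicate 1 (0.14) or replicate 2 (0.173) of 6 dpi. Across the 6 days the adjusted p was 0.147, and it was 0.0394 without replicate 2 of 3 dpi. No call was made across the 6 days in 23 of 25 alternatives. The 10 genes of the dissociation response, which tissue digestion can raise, summed to 6062 to 8765 CPM at 1 dpi and to 6648 to 7498 CPM at 6 dpi, and these ranges overlapped. Of the 10, edgeR called 2 heat shock genes lower at 6 against 1 dpi, while 5.21% of all genes tested were lower. These were *Hspa1a* with a log2 fold change of −1.66 (adjusted p = 0.0217) and *Hspa1b* with −2.16 (adjusted p = 0.0163). The part of the dissociation response in the fall of *Adamts1* was not tested, nor was that of the sex-linked pattern.

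*Adamts4*, *Adamts9* and *Adamts15* encode further proteoglycan-cutting enzymes and were lower in counts, with 93 to 937, 18 to 246 and 42 to 427 counts per library. *Adamts4* (ENSMUSG00000006403; chromosome 1, 171250421 to 171260637, plus strand), an aggrecanase, was at 35.7, 22.5 and 36.1 CPM at 1 dpi, at 50.2, 39.6 and 31.6 CPM at 2 dpi and at 20.2, 37.0, 15.8 and 15.5 CPM at 3 dpi. It was at 55.4, 54.0 and 9.94 CPM in the 3 libraries of 4 dpi, at 13.2 CPM in the 5 dpi library and at 27.6, 19.1 and 27.2 CPM at 6 dpi. Its lowest and highest library of all 17 were thus both at 4 dpi. Its adjusted p over the whole course was 0.256, and without replicate 3 of 4 dpi it was 0.02. At 4 against 3 dpi it gave 0.85 (adjusted p = 0.289), and without that library 1.29 (adjusted p = 0.0449). No call was made in 22 of 25 alternatives for the whole course and in 14 of 16 for 4 against 3 dpi.

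*Adamts15* (ENSMUSG00000033453; chromosome 9, 30899155 to 30922452, minus strand) was at 12.5, 10.4 and 15.6 CPM at 1 dpi and at 18.4, 26.6 and 28.1 CPM at 6 dpi. These libraries did not overlap, and the log2 fold change of 0.92 (SE 0.38) had an adjusted p of 0.123. It was at 12.9, 22.7 and 19.97 CPM at 2 dpi, at 14.9, 3.38, 8.85 and 13.9 CPM at 3 dpi, at 19.4, 16.6 and 18.3 CPM at 4 dpi and at 14.2 CPM in the 5 dpi library. Every library of 4 dpi was above those of 3 dpi, where replicate 2 was the lowest of all 17, and this step of 0.82 had an adjusted p of 0.229. *Adamts9* (ENSMUSG00000030022; chromosome 6, 92772699 to 92943492, minus strand) ranged from 1.53 to 17.2 CPM. It overlaps *A730049H05Rik* and *9530026P05Rik* on the opposite strand (the strand setting of the counting is not given in the sources used here), which had at most 378 counts over all libraries, against 1988 for *Adamts9*. Its level differed between libraries of a single day, from 4.54 to 17.2 CPM at 3 dpi and from 3.10 to 16.0 CPM at 4 dpi. At 6 dpi it was at 1.87, 1.53 and 8.99 CPM, and the log2 fold change against 1 dpi was −0.73 (adjusted p = 0.485). Without replicate 3 of 6 dpi it was −1.99 against 1 dpi (adjusted p = 0.0391) and −2.45 against 4 dpi (adjusted p = 0.0266). The library left out was the highest of 6 dpi, and each of these differences was not called in 14 of 15 alternatives.

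**Figure D2:**
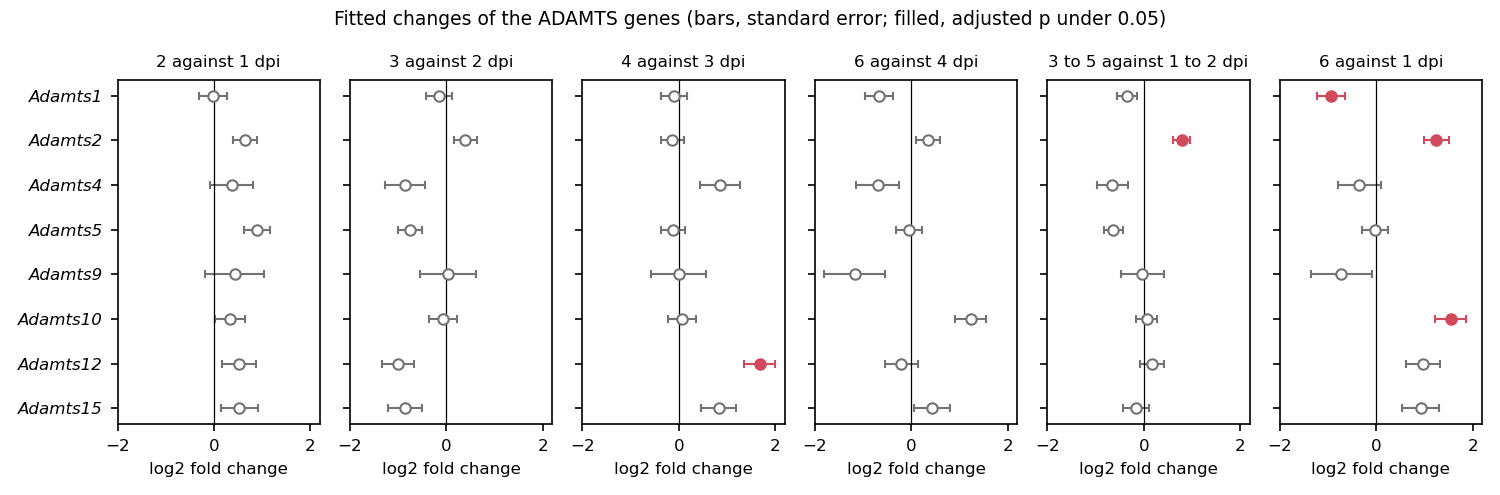
Fitted log2 fold change (horizontal axis) of each of the 8 ADAMTS genes (vertical axis) in 6 comparisons of days. Bars are the standard error derived from the edgeR F statistic, and points are filled red where the adjusted p was under 0.05. *Adamts2* in 3 to 5 against 1 to 2 dpi, *Adamts12* in 4 against 3 dpi, and *Adamts1*, *Adamts2* and *Adamts10* in 6 against 1 dpi are filled.

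Counted over the 8 genes, 3 changed at 6 against 1 dpi, 2 higher and 1 lower, while 12.1% of all genes tested changed, 6.91% higher and 5.21% lower. The median log2 fold change of the 8 was 0.45, and that of all genes was 0.03. The libraries of 1 and 6 dpi did not overlap for 4 of the 8 (*Adamts1*, *Adamts2*, *Adamts10* and *Adamts15*) and for 32.5% of all genes. In the window of 3 to 5 dpi against 1 to 2 dpi, 1 of the 8 changed and was higher, while 7.48% of all genes changed and 5.25% were higher. The median of the 8 in the window was −0.10, and that of all genes was −0.001. No ADAMTS gene was without overlap between the libraries of the window and those of 1 to 2 dpi, and 2.31% of all genes were.

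Between consecutive sampled days the calls among the ADAMTS genes were few. At 2 against 1 dpi edgeR called 0 of the 8, with 2 at an unadjusted p under 0.05, and 0.178% of all genes. DESeq2 called 0 of the 8. *Adamts2*, *Adamts5* and *Adamts12* did not overlap between these days, and 15.1% of all genes did not. At 3 against 2 dpi edgeR called 0 of the 8, with 4 at an unadjusted p under 0.05, and 2.94% of all genes. DESeq2 called 0 of the 8. *Adamts5* and *Adamts12* did not overlap, and 18.6% of all genes did not. At 4 against 3 dpi *Adamts12* alone of the 8 was called, as higher, by edgeR and by DESeq2. By edgeR 2.71% of all genes were called and 1.63% were higher. *Adamts12* and *Adamts15* did not overlap, and 16.7% of all genes did not. At 6 against 4 dpi edgeR called 0 of the 8, with 2 at an unadjusted p under 0.05, and 0.513% of all genes. DESeq2 called 1 of the 8 (*Adamts10*), and its share of all genes is not given for these steps. Across the 6 days DESeq2 called 3757 of all genes and edgeR 2099. *Adamts2* and *Adamts10* did not overlap, and 21.6% of all genes did not.

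**Figure D3:**
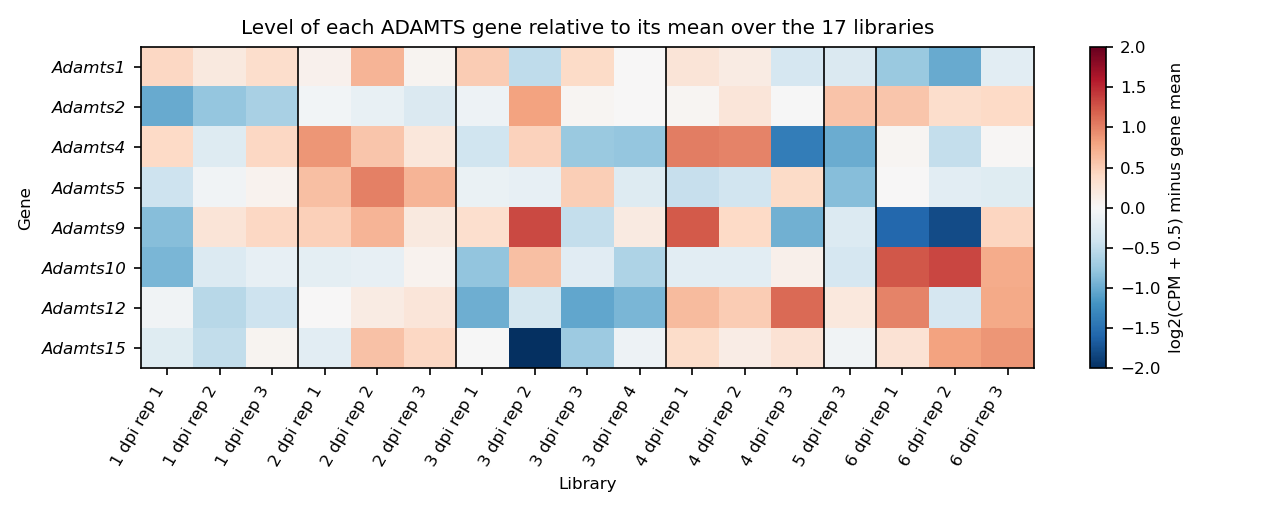
Level of the 8 ADAMTS genes (rows) in the 17 libraries (columns, ordered by day), as log2 of CPM plus 0.5 minus the mean of the gene over all libraries, from blue (lower) to red (higher). *Adamts10* was highest in the 3 libraries of 6 dpi and *Adamts5* in the 3 of 2 dpi, while *Adamts4* and *Adamts9* differed between libraries of 4 dpi.

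Correlations between pairs of the 8 genes had both signs. Over the 17 libraries, the highest Pearson correlation of log2 CPM between ADAMTS genes was 0.61, for *Adamts2* and *Adamts10*. After the mean of each day was removed, in the 16 libraries of days with replicates, it was 0.75. The lowest was −0.82, for *Adamts1* and *Adamts10*, and −0.73 within days. Within days the lowest was −0.83, for *Adamts2* and *Adamts15*, which gave −0.09 over the 17 libraries. Replicate 2 of 3 dpi had the highest *Adamts2* (572 CPM) and the lowest *Adamts15* (3.38 CPM) of the 17. It also had the highest *Adamts10* (142 CPM) and the lowest *Adamts1* (83.6 CPM) of its day. Correlations without this library were not computed. The neighbours *Adamts1* and *Adamts5* gave 0.29, and 0.01 within days. *Adamts12* and *Adamts15* gave 0.46 over the 17 libraries and −0.38 within days. The libraries share a day and a scaling, so that these values are a description.

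The genes most like an ADAMTS gene were those with the highest Pearson correlation over the 17 libraries, for the 4 genes that changed across the days. For *Adamts2* these were *Acp5*, *Gm15867* and *2310022B05Rik*, with Pearson correlations of 0.95, 0.92 and 0.92. For *Adamts5* they were *Gnptg* at 0.90, *Dusp1*, an immediate early phosphatase of the dissociation list, at 0.87, and *Lpl* at 0.86. For *Adamts10* they were *Dmpk*, *Cst3* and *Dguok*, at 0.96, 0.95 and 0.93. For *Adamts12* they were *Nedd9*, *Ankmy2* and *Pls3*, at 0.86, 0.85 and 0.82. These lists depend on the correlation used. By Spearman's rank correlation, 2 of the 3 genes were shared for *Adamts2* and for *Adamts5*, 1 for *Adamts12* (*Ankmy2*) and 0 for *Adamts10*.

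Of 11 other ADAMTS protease genes, 9 had enough counts to be tested. Of these, 4 changed across the days (*Adamts7*, *Adamts16*, *Adamts17* and *Adamts20*), while 15% of all genes tested did so. For 3 to 5 against 1 to 2 dpi 2 were higher (*Adamts16* and *Adamts20*), while 5.25% of all genes were. At 6 against 1 dpi 3 were higher (*Adamts7*, *Adamts16* and *Adamts17*), while 6.91% of all genes were. None was lower in either comparison. *Adamts7*, which like *Adamts12* encodes a COMP protease, was at 4.31, 7.46 and 5.33 CPM at 1 dpi and at 17.8, 19.6 and 17.1 CPM at 6 dpi, a log2 fold change of 1.66 (SE 0.36; edgeR adjusted p = 0.0055). *Adamts16* was at most 0.115 CPM in each library of 1 and 2 dpi, which is under the level of 3 counts, and at 1.94, 1.62 and 7.61 CPM at 6 dpi. *Adamts17* was at 0.127, 0.082 and 0.929 CPM at 1 dpi and at 6.33, 6.65 and 5.30 CPM at 6 dpi. *Adamts20* was at most 0.293 CPM at 1 and 2 dpi, at 3.57, 1.73 and 1.07 CPM at 4 dpi and at most 0.341 CPM at 6 dpi. The 2 calls in the window became 1 without replicate 1 or replicate 2 of 2 dpi or replicate 1 of 4 dpi.

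The ADAMTS-like proteins resemble the ADAMTS enzymes but lack the protease domain, and several bind fibrillin microfibrils as *Adamts10* does. Of 7 such genes, 2 changed across the days, while 15% of all genes tested did so. At 6 against 1 dpi 3 changed, all higher, while 6.91% of all genes were higher. In the window edgeR called 0 of them, with 0 at an unadjusted p under 0.05, and DESeq2 called 0. *Adamtsl2* had a log2 fold change of 2.06 (SE 0.31; edgeR adjusted p = 0.000259), *Adamtsl5* of 1.11 (adjusted p = 0.011) and *Adamtsl4* of 1.41 (adjusted p = 0.0357). The 3 calls became 1 without replicate 1 of 1 dpi or replicate 2 of 6 dpi.

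Among 15 substrate genes of the ADAMTS enzymes, 14 were tested and 9 changed across the days, as did 15% of all genes. At 6 against 1 dpi 8 were higher and 1 was lower, while 6.91% of all genes were higher and 5.21% lower. The median log2 fold change of the 14 was 1.21 and that of all genes 0.03. *Comp*, the substrate of the *Adamts12* and *Adamts7* products, was at 12.7, 31.3 and 33.5 CPM at 1 dpi and at 212, 291 and 242 CPM at 6 dpi. The log2 fold change was 3.26 (SE 0.58; edgeR adjusted p = 0.00117). *Col1a1*, whose product is trimmed by the *Adamts2* enzyme and whose promoter drives the GFP of the sort, rose by 2.39 (SE 0.40; adjusted p = 0.000659), *Col1a2* by 1.41 and *Col3a1* by 1.29. *Fbn2*, which encodes a fibrillin, rose by 1.90 and *Bgn*, which encodes biglycan, by 1.45. *Thbs1*, which encodes thrombospondin-1, fell by 1.25 on the log2 scale (adjusted p = 0.0193). *Vcan*, which encodes versican, was at 139, 117 and 153 CPM at 1 dpi and at 92.0, 87.2 and 138 CPM at 6 dpi, with a log2 fold change of −0.37 (SE 0.23; adjusted p = 0.31). *Acan*, which encodes aggrecan, the proteoglycan cut by the *Adamts4* and *Adamts5* products, was at 0, 0.082 and 0.489 CPM at 1 dpi and at 7.23, 8.61 and 13.4 CPM at 6 dpi. It was called higher (edgeR adjusted p = 0.00429), and its fitted fold rests on few counts at 1 dpi. In the window 4 substrate genes rose (*Col1a1*, *Col1a2*, *Col3a1* and *Fbn2*) and none fell, while 5.25% of all genes were higher.

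**Figure D4:**
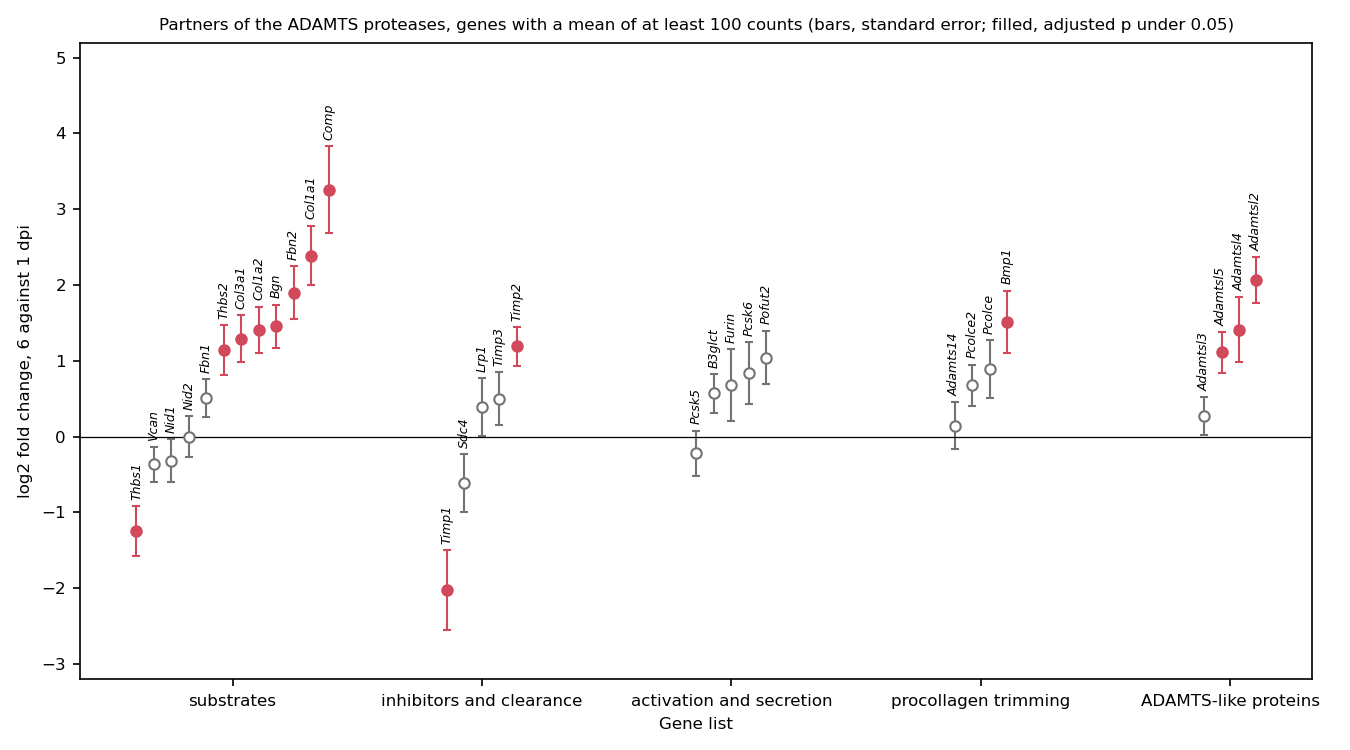
Log2 fold change of 6 against 1 dpi (vertical axis) for genes of 5 lists of ADAMTS partners (horizontal axis) with a mean of at least 100 counts. Bars are the standard error derived from the edgeR F statistic, and points are filled where the adjusted p was under 0.05. *Comp* at 3.26 was the highest and *Timp1* at −2.02 the lowest of those drawn, and *Vcan* at −0.37 was not called.

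Of 7 genes for inhibitors and clearance receptors of ADAMTS enzymes, edgeR called 2 at 6 against 1 dpi, while 12.1% of all genes tested changed. In the window it called 0, with 1 at an unadjusted p under 0.05, and DESeq2 called 0, while 7.48% of all genes changed by edgeR. *Timp2* rose by 1.19 (SE 0.26; adjusted p = 0.00526). *Timp1* was at 7611, 3377 and 4552 CPM at 1 dpi and at 1054, 1212 and 1555 CPM at 6 dpi, a log2 fold change of −2.02 (SE 0.53; adjusted p = 0.0178). *Timp3*, which encodes the main tissue inhibitor of the aggrecan-cutting ADAMTS enzymes, gave 0.50 (adjusted p = 0.375). The 2 calls became 1 without replicate 1 of 1 dpi or replicate 1 or 2 of 6 dpi. Of 5 genes for propeptide removal and for the O-fucosylation that precedes secretion of ADAMTS proteins, *Pcsk5*, which encodes a convertase, fell in the window by 1.13 on the log2 scale (SE 0.23; adjusted p = 0.00323). At 6 against 1 dpi edgeR called 0 of the 5, with 2 at an unadjusted p under 0.05, and DESeq2 called 1. Of 7 genes for procollagen trimming beside *Adamts2*, 6 were tested. In the window edgeR called 0 of them, with 0 at an unadjusted p under 0.05, and DESeq2 called 0. At 6 against 1 dpi *Bmp1*, the procollagen C-proteinase, rose by 1.51 (SE 0.41; adjusted p = 0.0216). That call was lost without any single library of 1 dpi and without replicate 1 or 2 of 6 dpi.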

How the data were processed

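Bulk RNA-seq by MARS-seq, which primes poly-A RNA at its 3′ end, was analysed for 17 libraries. Per the authors, bcl2fastq (1.2.4) separated the reads by sample, STAR placed them on mm10, and featureCounts assigned them to Ensembl GRCm38.91 genes. The deposited table holds these counts as whole numbers, not normalized. Collapsing of molecular identifiers and the strand setting are not given in the sources used here. Totals ranged from 8021815 to 22029938 per library. PCR copies are not independent molecules, and the level of 3 counts used as a floor covers counting error only.

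The counts were read with Python (3.11.15) and pandas (2.3.3). The 14030 genes that reached 10 counts in 3 or more libraries entered edgeR's (4.0.16, R 4.3.3) quasi-likelihood F-test on TMM-scaled library sizes. The model held the 6 days as a factor, took all 17 libraries and had no replicate block. Benjamini-Hochberg adjustment covered these genes, and calls were made below an adjusted p of 0.05. Contrasts share libraries. Levels are CPM on TMM-scaled library sizes, and correlations use log2 CPM with a prior count of 2 and genes with a mean of at least 100 counts. Since reads come from 3′ ends and are not per length, levels were compared between days and not between genes. Libraries are separate samples by their labels, so that p-values measure the spread between them, which may be partly technical. All 18 replicate pairs differed by more than counting error. The 5 dpi library is replicate 3 by its title and 1 by its description. Gene positions are from GENCODE vM21.

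Alternatives were DESeq2 (1.42.0) as test and as size factors, upper-quartile and raw scaling, other count filters, a replicate block, fits on fewer days or libraries, and each library left out. Another, without both replicate 2 of 3 dpi and replicate 3 of 4 dpi, was chosen after seeing the data. The ADAMTS genes, the gene lists and the tests were chosen with earlier results of these data known. Named beside the 8 are the called genes of each list with the lowest p-values, up to 4, those whose role is described (*Thbs1*, *Acan*, *Hspa1a* and *Hspa1b* were named after their values were seen), and the 3 genes most correlated with each changed ADAMTS gene. The script was tested on simulated data.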

Additional observations from a re-analysis of the deposited data

Results flagged for a closer look

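At 3 dpi, the only day with 4 libraries, 3 of the 8 ADAMTS genes had a library far from the others, with a gap to the nearest library over the range of the day above the 95% critical value of Dixon's test, which chance exceeds in about 1 of 20 groups. *Adamts2* was at 571.9 CPM in replicate 2 and between 306.3 and 337.1 CPM in the others. *Adamts12* was at 6.36 CPM in replicate 2 and between 3.791 and 4.15 CPM in the others. *Adamts5* was at 220.2 CPM in replicate 3 and between 130.1 and 142.0 CPM in the others.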

How the results depend on the processing

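In the window of 3 to 5 against 1 to 2 dpi, the 1 ADAMTS gene called became 2 with DESeq2, with the replicate block or without the 3 dpi libraries, 3 with every gene of at least 1 count and 0 with only the libraries of more Y-linked than *Xist* counts. At 6 against 4 dpi, 0 became 1 with DESeq2 and with every gene of at least 1 count. Without both replicate 2 of 3 dpi and replicate 3 of 4 dpi (chosen after seeing the data), the numbers were 3 in the window, 2 at 3 against 2 dpi, 2 at 4 against 3 dpi, 3 at 6 against 4 dpi and 5 at 6 against 1 dpi. With each library left out in turn, they were 2 to 5 across the 6 days, 1 to 2 in the window, 0 at 2 against 1 dpi, 0 to 1 at 3 against 2 dpi, 1 to 2 at 4 against 3 dpi, 0 to 2 at 6 against 4 dpi and 2 to 4 at 6 against 1 dpi. The cause of these shifts was not tested.

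Over 1016 alternative fits of single ADAMTS genes, 963 left a call or its absence as it was, 18 lost a call, 35 gained one and 0 reversed a call. The sign changed in 59 of the fits without a call. Same-numbered libraries of different days had a mean correlation of 0.011 over 30 pairs (−0.11 to 0.2), after the mean of each day was removed. Other pairs had a mean of −0.0051 over 72 pairs (−0.26 to 0.15). These values gave no sign that the numbers pair the libraries. With few libraries a day they cannot exclude a pairing. With the replicate block, *Adamts12* across the 6 days had an adjusted p of 0.0576 and *Adamts1* at 6 against 1 dpi one of 0.0585. With upper-quartile scaling the latter was 0.0533.

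Among all genes, calls were 2099 across the 6 days (1307 to 4145 over the alternatives), 1050 in the window (767 to 1882), 25 at 2 against 1 dpi (10 to 153), 412 at 3 against 2 dpi (46 to 1042), 380 at 4 against 3 dpi (125 to 879), 72 at 6 against 4 dpi (3 to 1402) and 1700 at 6 against 1 dpi (763 to 2859). Depth limits *Adamts9* most, at 18 to 246 counts per library.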
